A study of Mus musculus with 13 samples.

Results

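CD97 and 9 tetraspanins were described in M2 CD4 single-positive (CD4SP) thymocytes, the most mature CD4 stage in the thymus, sorted as CD69-MHCI+ cells. The 10 genes were Adgre5, which encodes CD97, and Cd82, Cd9, Cd37, Cd53, Cd63, Cd81, Cd151, Tspan13 and Tspan32, out of 35906 genes with a transcript in the files. They were picked by name with their behaviour in these 13 libraries already known, so their levels, fold changes and calls are given as a description and not as tests. All 10 were listed in the files, with 69 transcripts among them.

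All mice carried the Lm54 TCR transgene on a Rag1-/- background, so that every T cell had the same receptor. In CtslΔTEC mice a conditional allele of Ctsl, the gene of the protease cathepsin L, was deleted by Foxn1-cre in thymic epithelial cells; the thymocytes themselves were not the deleted cells, so their own Ctsl transcript does not check the genotype. The control mice are labelled Ctsl fl/fl (WT) and are written as Ctsl+/+ in the study. Unstimulated cells came from 4 control mice (mice 1 to 4) and 5 CtslΔTEC mice (mice 1 to 5), and cells stimulated for 4 h came from 2 control mice (mice 5 and 6) and 2 CtslΔTEC mice (mice 6 and 7). The stimulus was plate-bound LLO:I-Ab monomer at 1 µg/ml, the ligand of the transgenic receptor, with soluble anti-CD28 at 250 ng/ml. Ages are not given in the labels.

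CD97 belongs to the adhesion G-protein-coupled receptors, which carry a long extracellular region that is cut from the membrane part during maturation but stays attached to it. Its outer end is a row of EGF-like modules whose number depends on splicing, and CD55, Thy-1 and integrins bind along that region, while the membrane part couples to G12/13 proteins. Tetraspanins cross the membrane 4 times and gather integrins, immunoglobulin-superfamily proteins and proteases into membrane domains; on T cells CD9, CD81, CD82, CD53 and CD37 are known to shape adhesion and costimulation. The large extracellular loop of every tetraspanin holds a cysteine-cysteine-glycine signature.

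The splice choice that sets the number of EGF-like modules is shown first, because the Adgre5 transcripts below differ by it. Both alternative exons lie in the coding sequence of Adgre5, on the minus strand of chromosome 8 in GRCm38, the 135-base exon at chr8:83731903-83732037 and the 147-base exon at chr8:83730111-83730257, as exons 5 and 6 of 20 in Adgre5-202. Adgre5-203 holds the 147-base exon alone, and Adgre5-201 and Adgre5-208 hold neither. Codons for cysteine in the reading frame are in capitals; the 147-base exon has 6 among 49 codons, the number in an EGF-like module, and the 135-base exon has 0 among 45.
Exon of 147 bases: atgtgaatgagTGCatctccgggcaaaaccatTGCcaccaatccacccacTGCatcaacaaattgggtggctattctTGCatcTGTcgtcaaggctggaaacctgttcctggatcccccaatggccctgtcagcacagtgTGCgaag
Exon of 135 bases: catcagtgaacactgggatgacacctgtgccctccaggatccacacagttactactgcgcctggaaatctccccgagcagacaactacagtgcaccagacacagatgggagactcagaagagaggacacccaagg

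The tetraspanin signature was found in frame in the coding sequence of each of the 9 tetraspanins, searched between residues 120 and 170, with its first cysteine between residues 128 and 156; Cd9, Cd63 and Cd81 each hold 1 further match outside that stretch. It is shown for the 4 tetraspanins that the results turn on, with the 9 signature bases in capitals inside 45 coding bases of the leading transcript. The signature lies on chromosome 2 at 93420741 to 93420749 in Cd82 (minus strand), on chromosome 6 at 125462189 to 125462197 in Cd9 (minus strand), on chromosome 12 at 36021837 to 36021845 in Tspan13 (minus strand) and on chromosome 7 at 143015587 to 143015595 in Tspan32 (plus strand), all in GRCm38.
Cd82: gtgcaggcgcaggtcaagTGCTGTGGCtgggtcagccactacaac
Cd9: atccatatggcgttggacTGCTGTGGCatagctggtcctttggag
Tspan13: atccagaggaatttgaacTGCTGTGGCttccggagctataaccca
Tspan32: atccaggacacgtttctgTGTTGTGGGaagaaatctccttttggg

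The libraries held 25692380 to 39127833 estimated counts when unstimulated and 8085463 to 27184520 when stimulated, stimulated control mouse 5 being the shallowest. Every stimulated library has a file date that no unstimulated library shares, and the effects of date and stimulation cannot be told apart. The 8 T cell markers summed to between 5115 and 5978 TPM (transcript abundance scaled for transcript length and library size) in every library, the 8 B cell markers to at most 3.58 TPM, and the thymic epithelial and NK cell markers to at most 22 and 17.9 TPM, with Ncr1 at 0. The 7 platelet markers summed to 2.62 to 4.72 TPM in unstimulated and 3.59 to 9.62 TPM in stimulated libraries, with Pf4, Ppbp, Gp1bb and Treml1 at 0; the 1 that was tested was called higher with stimulation in both genotypes (log2 fold change 1.18 and 1.07). The 10 myeloid and dendritic markers summed to 58.5 to 76.2 TPM in unstimulated libraries, and to 61.9 and 63.5 TPM in stimulated control and 45.4 and 48.7 TPM in stimulated CtslΔTEC libraries. Erythroid markers summed to 160 to 771 TPM in unstimulated and 9.67 to 63.1 TPM in stimulated libraries; the part of these markers in the results was not tested. Y-linked transcripts were high in 1 of 4 unstimulated control and 5 of 5 unstimulated CtslΔTEC mice, and in 1 of 2 stimulated mice of each genotype. Sex, as read from these transcripts, and genotype can therefore hardly be told apart in the unstimulated comparison. In bulk RNA, fewer cells of a type and less RNA per cell cannot be told apart.

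Levels per transcript length placed Cd53 first in every group. In unstimulated control cells Cd53, a leukocyte tetraspanin, had 686 ± 128 TPM (SD, n = 4), followed by Cd37 at 310.2 ± 29.1 and Tspan32 at 278 ± 13.9, whose ranges overlapped. Adgre5 (124 ± 16.4 TPM), Cd82 (103 ± 11.9) and Tspan13 (97.4 ± 7.17) came next, each overlapping its neighbour, then Cd9 (44.5 ± 6.13) and Cd81 (42.7 ± 0.451), which overlapped too, and Cd151 at 12.2 ± 1.15. Cd63, a tetraspanin of late endosomes, had 0.573 TPM or less in every unstimulated library, on 1 to 17 counts, and at most 0.551 TPM on 3 to 6 counts after stimulation; its fold changes rest on too few counts to give a direction, with a 95% interval of -1.63 to 2.20 between stimulated genotypes. After stimulation Cd82 moved from the fifth place to the second in both genotypes, Tspan32 fell to the seventh place in control and the sixth in CtslΔTEC cells, and Adgre5 took the sixth place in control and the third in CtslΔTEC cells. The range of Adgre5 overlapped those of Tspan13 and Tspan32, its neighbours in stimulated control cells, and that of Cd37, the next lower in stimulated CtslΔTEC cells.

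**Figure D1:**
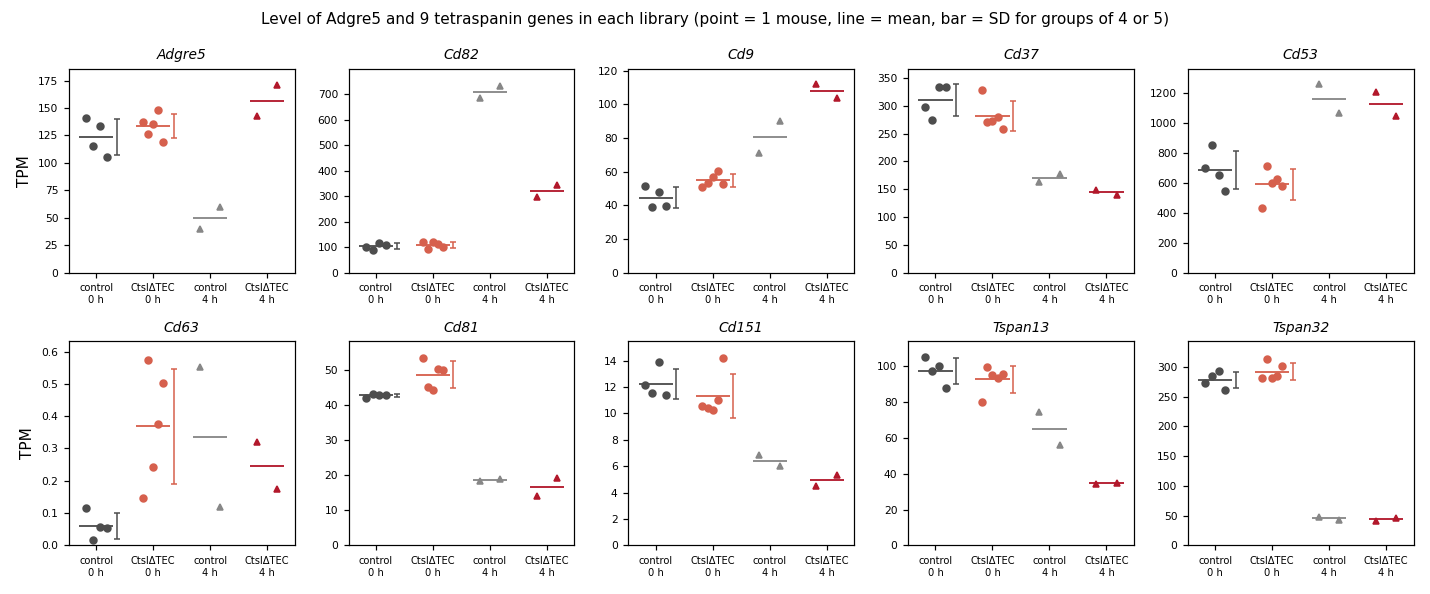
TPM (linear axes from 0) of Adgre5 and the 9 tetraspanins in the 13 libraries, with 1 point per mouse, the group mean as a line and the SD as a bar for groups of 4 or 5. Adgre5 is lower in the 2 stimulated control libraries (40.2 and 59.7 TPM) than in every other library, Cd82 is highest in the same 2 (683 and 730 TPM), and Tspan32 falls from at least 261 TPM to at most 47.7 TPM in both genotypes.

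Adgre5 had almost the same level in the unstimulated genotypes and moved in opposite directions after stimulation. Unstimulated control mice 1 to 4 had 141, 115, 134 and 105.6 TPM, and unstimulated CtslΔTEC mice 1 to 5 had 137, 127, 136, 148 and 120 TPM. Stimulated control mice 5 and 6 had 40.2 and 59.7 TPM, and stimulated CtslΔTEC mice 6 and 7 had 142 and 171 TPM. The unstimulated groups overlapped, both stimulated control libraries lay below all others, and the CtslΔTEC mouse with 142 TPM lay inside the unstimulated range while the other lay above it. In edgeR's model the log2 fold change between genotypes was 0.01 (SE 0.08, 95% interval -0.16 to 0.17) before and 1.54 (SE 0.13, 1.27 to 1.81) after stimulation. The response to stimulation was -1.19 (SE 0.11) in control and 0.34 (SE 0.10) in CtslΔTEC cells, and the difference between the 2 responses was 1.54 (SE 0.15, 1.22 to 1.85). The rise in CtslΔTEC cells was the least steady of these values: it was 0.20 with library totals as the only scaling and 0.22 without CtslΔTEC mouse 7, below the threshold in both.

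Adgre5 (chr8:83723251-83741326, minus strand) overlaps Ddx39 on the opposite strand, and 807 of the 3268 exonic bases of its full-length forms are shared with Ddx39 exons. The study reports default parameters unless specified and names no strand option for kallisto, so reads in the shared part cannot be assigned to either gene. Ddx39, an RNA helicase gene, rose in both genotypes (log2 fold change 1.48, SE 0.09, adjusted p = 4.24e-10 in control and 1.58, SE 0.09, adjusted p = 6.06e-11 in CtslΔTEC cells, edgeR), from 63.7 to 79.3 TPM before to 173 to 196 TPM after stimulation. Between stimulated genotypes its log2 difference was 0.12 (SE 0.11, adjusted p = 0.588, edgeR), while that of Adgre5 was 1.54.

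The Adgre5 forms without a cassette exon lost share after stimulation in both genotypes. Among full-length coding transcripts these forms (Adgre5-201 and Adgre5-208, 724 and 722 coded residues) held 55.9% ± 2.22 of TPM in unstimulated control (SD, n = 4) and 59.1% ± 2.35 in unstimulated CtslΔTEC cells (n = 5). After stimulation they held 36% and 29.8% in control and 33.2% and 33.5% in CtslΔTEC libraries, with no overlap between states in either genotype. The form with the 147-base exon (Adgre5-203, 773 residues) went from between 25% and 31.3% in unstimulated libraries to between 41.5% and 48.8% in stimulated ones. The form with both exons (Adgre5-202, 818 residues) went from 15.9% ± 3.16 to 21.4% and 22.6% in control and from 12.2% ± 1.66 to 18.7% in both CtslΔTEC libraries. The ranges of the genotypes' shares overlapped in both states, except for the form with both exons after stimulation, while the levels lay apart after stimulation. Forms with neither exon fell from 59.5 ± 9.39 TPM to 13.7 and 14.5 TPM in control and from 64.3 ± 5.13 to 38.7 and 43.9 TPM in CtslΔTEC cells. The form with the 147-base exon went from 29.8 ± 3.28 to 15.8 and 23.8 TPM in control and from 31.3 ± 3.91 to 55.3 and 63.6 TPM in CtslΔTEC cells. These are kallisto's splits of reads among overlapping transcripts, given without a test.

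**Figure D2:**
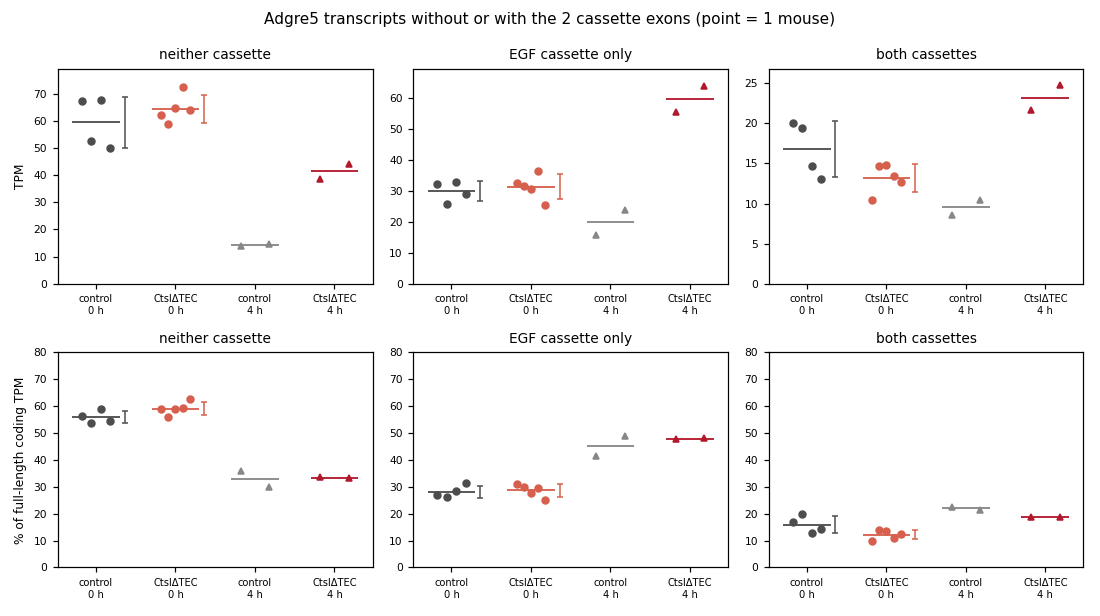
Adgre5 full-length coding transcripts grouped by cassette exon ("EGF cassette only" is the form with the 147-base exon alone), as TPM (top row) and as percent of their summed TPM (bottom row), with 1 point per mouse, mean lines and SD bars for groups of 4 or 5. The share of forms with neither exon is 53.9% to 62.6% in unstimulated and 29.8% to 36% in stimulated libraries of both genotypes, whereas the TPM of every form is higher in CtslΔTEC than in control cells after stimulation.

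Cd82, a tetraspanin that organizes integrins and signalling receptors, was the member with the largest rise. Control mice 1 to 4 had 101, 87.1, 115 and 108 TPM unstimulated, and CtslΔTEC mice 1 to 5 had 118, 93.4, 119, 112 and 102 TPM. Stimulated control mice had 683 and 730 TPM and stimulated CtslΔTEC mice 297 and 344 TPM. All 4 stimulated libraries lay above all 9 unstimulated ones, and the stimulated genotypes did not overlap. The log2 fold change with stimulation was 2.90 (SE 0.11, 7.44-fold) in control and 1.72 (SE 0.10, 3.29-fold) in CtslΔTEC cells, and the difference between the responses was -1.18 (SE 0.16, 95% interval -1.52 to -0.84). The genotypes differed by 0.04 (SE 0.09) before and -1.14 (SE 0.13) after stimulation.

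Tspan13 fell with stimulation, and further in CtslΔTEC cells. Its unstimulated values were 105, 97.4, 99.8 and 87.7 TPM in control and 79.9, 99.5, 94.98, 93.3 and 95.8 TPM in CtslΔTEC mice, and these ranges overlapped. Stimulated control mice had 74.1 and 56.2 TPM, and stimulated CtslΔTEC mice 34.2 and 35.1 TPM, with no overlap. The log2 fold change with stimulation was -0.49 (SE 0.14) in control and -1.27 (SE 0.14) in CtslΔTEC cells, with a difference between responses of -0.78 (SE 0.19, 95% interval -1.19 to -0.38). The fall in control cells was -0.26 and under the threshold without control mouse 6, and the difference was -0.52 without control mouse 5 and -0.77 without CtslΔTEC mouse 6, both under the threshold.

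Cd9, a tetraspanin that associates with integrins and CD81, rose in both genotypes and was the only member past the threshold between unstimulated genotypes. Unstimulated control mice had 51.6, 39.0, 47.7 and 39.8 TPM, and CtslΔTEC mice 51.2, 53.2, 56.8, 60.6 and 52.7 TPM, so that control mouse 1 lay among the CtslΔTEC mice. Stimulated control mice had 71.1 and 90.1 TPM and stimulated CtslΔTEC mice 112 and 104 TPM. The log2 difference between genotypes was 0.27 (SE 0.08) before and 0.43 (SE 0.12) after stimulation, and the difference of these was 0.16 (SE 0.15, 95% interval -0.15 to 0.47). The unstimulated difference was 0.20 (SE 0.14) and below the threshold with a Y-linked covariate, and it was below the threshold without control mouse 2 (0.22), control mouse 4 (0.24) or CtslΔTEC mouse 4 (0.24). After stimulation the difference fell below the threshold without control mouse 5 (0.33), CtslΔTEC mouse 6 (0.38) or CtslΔTEC mouse 7 (0.46). The response to stimulation was 0.97 (SE 0.10) in control and 1.13 (SE 0.10) in CtslΔTEC cells.

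Tspan32, a hematopoietic tetraspanin known to restrain T cell proliferation, had the largest fall of the members, with no separation by genotype. Unstimulated values were 272, 285, 293 and 261 TPM in control and 281, 313, 281, 284 and 301 TPM in CtslΔTEC mice. Stimulated values were 47.7 and 43.0 TPM in control and 41.0 and 46.7 TPM in CtslΔTEC mice. The log2 fold change was -2.39 (SE 0.12) in control and -2.52 (SE 0.12) in CtslΔTEC cells, and the genotypes differed by -0.09 (95% interval -0.35 to 0.17) after stimulation.

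The other measured members moved with stimulation in the same direction in both genotypes. Cd53 rose from 545 to 853 TPM in unstimulated control and 431 to 711 TPM in unstimulated CtslΔTEC cells to between 1043 and 1254 TPM (log2 fold change 0.88, SE 0.19, and 1.09, SE 0.18). Cd37, which like Cd53 is restricted to leukocytes, fell in both (-0.75, SE 0.12, in each genotype), to between 139 and 178 TPM. Cd81, a broadly expressed tetraspanin, fell from 42.0 to 53.3 TPM to between 14.1 and 19.2 TPM (-1.12, SE 0.14, and -1.34, SE 0.13). Its unstimulated control mice (42.0 to 43.1 TPM) lay below all CtslΔTEC mice (44.3 to 53.3 TPM), with a log2 difference of 0.14 (SE 0.08, 95% interval -0.04 to 0.32). Cd151, a partner of laminin-binding integrins, fell to between 4.49 and 6.86 TPM (-1.04, SE 0.20, and -1.52, SE 0.20), on 30 to 116 counts per stimulated library. Its stimulated genotype difference of -0.61 (SE 0.24) was not past the threshold, but was so without control mouse 6 (-0.88) or without CtslΔTEC mouse 7 (-0.97).

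Counted over the comparisons, 1 of 9 members that passed the filter was called between unstimulated genotypes, where 15.1% of all tested genes were called, and 4 of 10 between stimulated genotypes, where 13.4% were. In the responses 9 of 10 were called in control cells, with 67.5% of all genes, and 9 of 10 in CtslΔTEC cells, with 71% of all genes. The difference between responses was called for 3 of 10, with 6.14% of all genes. TPM ranges did not overlap for 2 members between unstimulated genotypes (10.9% of all genes), 6 between stimulated genotypes (44.8%), 10 between the states of control cells (64.8%) and 8 between the states of CtslΔTEC cells (68.1%). The members were chosen on these contrasts, so nothing is read from these counts. Medians over the tested members and over all genes were 0.01 and 0.01 for the unstimulated and -0.08 and -0.05 for the stimulated genotype comparison, -0.62 and 0.01 for the control response and -0.21 and -0.06 for the CtslΔTEC response, on the log2 scale.

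**Figure D3:**
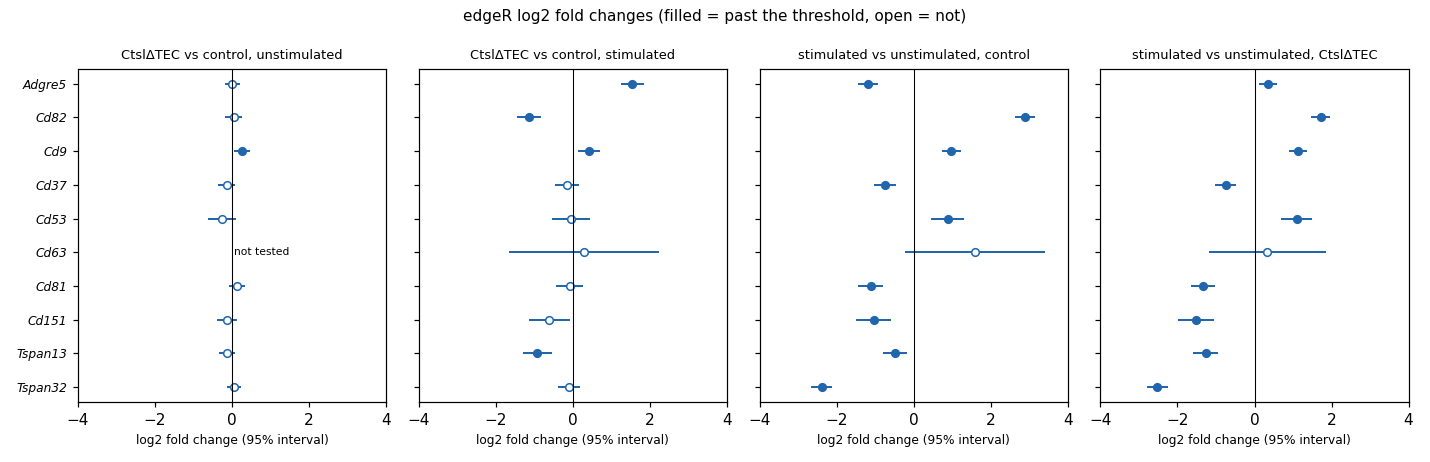
edgeR log2 fold changes (points) with 95% intervals (lines) of the members in 4 comparisons, filled where past an adjusted p of 0.1. Between genotypes only Cd9 is filled before stimulation (0.27), and Adgre5 (1.54), Cd82 (-1.14), Cd9 (0.43) and Tspan13 (-0.92) are filled after it. Cd63 rests on 1 to 17 counts per library, has intervals that include 0 in the 3 comparisons in which it was tested, and was not tested between unstimulated genotypes.

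Of the 22 other tetraspanin genes, a list written from the gene family, 12 passed the filter in unstimulated cells and 14 over all libraries. Tspan31 was lower in CtslΔTEC cells in both states. Unstimulated control mice had 17.2, 16.0, 20.2 and 25.1 TPM, and CtslΔTEC mice had 7.97, 8.54, 5.69, 5.65 and 5.74 TPM. Stimulated control mice had 31.3 and 35.9 TPM and stimulated CtslΔTEC mice 8.27 and 7.14 TPM. All CtslΔTEC libraries lay below all control libraries. The log2 difference was -1.62 (SE 0.17, edgeR adjusted p = 6.8e-05) before and -1.84 (SE 0.25, adjusted p = 3.1e-04) after stimulation, and -1.43 (SE 0.16, adjusted p = 0.000117) in the 6 unstimulated libraries of the second file date. Tspan31 shares 641 of 2193 exonic bases with Cdk4, which had 72.7 to 254 TPM, and the part of shared reads in the Tspan31 values was not tested. The genotype difference of Cdk4 was -0.31 (SE 0.09, edgeR adjusted p = 0.0455) before and -0.38 (SE 0.15, adjusted p = 0.138) after stimulation. Cdk4 rose with stimulation in both genotypes (1.32, SE 0.13, in control and 1.25, SE 0.12, in CtslΔTEC cells). Tspan6 was higher in unstimulated CtslΔTEC cells (0.52, SE 0.17, edgeR adjusted p = 0.0746) but lost the call in 12 of its 25 alternatives, among them 7 of the 9 fits that left out 1 mouse, where its value ran from 0.44 to 0.55. Tspan7 was higher in stimulated CtslΔTEC cells (1.38, SE 0.46, adjusted p = 0.0713) at 0.346 TPM or less, and the call was lost without control mouse 5 (0.98), CtslΔTEC mouse 6 (1.22) or CtslΔTEC mouse 7 (1.53); it was called in 8 of 15 alternatives, over which its value ran from 0.25 to 2.65. With these, 2 of 12 were called between unstimulated and 2 of 14 between stimulated genotypes, where 15.1% and 13.4% of all genes were, and 0 of 14 for the difference between responses, where 6.14% were.

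With stimulation 7 other tetraspanins rose and 3 fell in control cells, and 5 rose and 3 fell in CtslΔTEC cells, so that 10 and 8 of 14 were called where 67.5% and 71% of all genes were. Tspan5, which guides the protease ADAM10 to the cell surface, rose from 9.79 ± 1.43 to 27.2 and 37.6 TPM in control (log2 fold change 1.56, SE 0.13, edgeR adjusted p = 2.6e-08) and from 11.2 ± 1.74 to 36.7 and 41.8 TPM in CtslΔTEC cells (1.69, SE 0.13, adjusted p = 3.1e-09). Tspan15, of the same ADAM10-binding subgroup, rose at low level, to 0.796 to 1.13 TPM (1.63, SE 0.32, adjusted p = 3.2e-04 in control and 1.67, SE 0.30, adjusted p = 1.2e-04 in CtslΔTEC cells). Tspan14, also of that subgroup, fell from 83.2 ± 7.25 to 21.4 and 26.2 TPM in control (-1.71, SE 0.10, adjusted p = 1.8e-10) and from 85.8 ± 4.30 to 19.5 and 22.6 TPM in CtslΔTEC cells (-1.85, SE 0.10, adjusted p = 3.7e-11). Tspan4 had the largest fold change of the list in control cells, from at most 0.373 TPM to 2.23 and 1.79 TPM (3.05, SE 0.82, adjusted p = 0.00416), and was not called in CtslΔTEC cells, at 0.637 and 0 TPM after stimulation (2.3-fold, SE 1.15 on the log2 scale, adjusted p = 0.374). It had at most 25 counts in any library, and the difference between its responses was -1.85 (SE 1.41, edgeR adjusted p = 0.59). Rom1 and Tspan9 were the other genes that fell, both below 4 TPM. The medians of the 14 tested genes were 0.57 and 0.65 in control and CtslΔTEC cells, beside 0.01 and -0.06 for all genes. Tspan4 and Tspan18 passed the filter only with the stimulated libraries included, which favours a rise. Nothing is therefore read from these medians or from the counts of genes that rose and fell.

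Of the genes of CD97 ligands, Cd55, which encodes the complement regulator bound by the outer EGF-like modules, fell from 52.4 ± 11.6 to 11.4 and 8.79 TPM in control (log2 fold change -2.17, SE 0.25, edgeR adjusted p = 3.6e-06) and from 52.7 ± 8.71 to 8.32 and 7.76 TPM in CtslΔTEC cells (-2.45, SE 0.25, adjusted p = 8.4e-07). Thy1 fell from 905 ± 26.7 to 121 and 111 TPM in control and from 1094 ± 109 to 114 and 111 TPM in CtslΔTEC cells (-2.86 and -3.23). Itgb3, the integrin β3 chain, was lower in CtslΔTEC cells in both states: unstimulated control mice had 192 to 210 TPM and CtslΔTEC mice 93.0 to 116 TPM (-1.03, SE 0.08, adjusted p = 6.7e-06), and stimulated mice had 7.43 and 8.07 against 1.44 and 2.40 TPM (-1.99, SE 0.18, adjusted p = 1.5e-05). Itgb1 and Itga5, the chains of the fibronectin receptor, rose in both genotypes (0.72 and 0.52 in control, 1.02 and 0.53 in CtslΔTEC cells). The Itga5 rise was below the threshold without stimulated control mouse 6 (0.16) and without CtslΔTEC mouse 6 (0.40), and in control cells also with a transcript length offset and with limma on log2 TPM. In all, 2 of 6 ligand genes rose and 3 fell in control cells, and 2 rose and 4 fell in CtslΔTEC cells, where 67.5% and 71% of all genes were called; between genotypes Thy1 was called higher and Itgb3 lower before, and Itgb3 lower after stimulation, beside 15.1% and 13.4% of all genes called. The Thy1 difference (0.23, SE 0.08, edgeR adjusted p = 0.0903) was called in 12 of 25 alternatives, and was lost with the Y-linked covariate and in 7 fits that left out 1 mouse, where its value was 0.18 to 0.23.

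Of the genes of the G12/13 proteins, to which CD97 couples, Gna13 rose in both genotypes (log2 fold change 0.29 in control and 0.33 in CtslΔTEC cells) and Gna12 rose in control cells (0.30). Gna12 was lower in CtslΔTEC cells before (-0.28, edgeR adjusted p = 0.0748) and after stimulation (-0.49, adjusted p = 0.0708). The rise of Gna13 was below the threshold with library totals as the only scaling in both genotypes (0.19 and 0.18), and in control cells also with upper quartile scaling and without stimulated control mouse 6 (0.14). Over all alternatives the Gna13 rise ran from 0.14 to 0.81 in control and from 0.18 to 0.72 in CtslΔTEC cells. All 3 Gna12 calls were fragile: in fits that left out 1 mouse the rise in control cells was lost in 4, and was 0.09 without stimulated control mouse 5, while the unstimulated difference was lost in 7 and the stimulated one in 3.

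Of 28 other adhesion receptors 13 passed the filter, and none rose with stimulation in edgeR's test: 8 fell in control and 10 in CtslΔTEC cells, where 4939 and 5434 of all 14241 genes fell. The 10 include Adgrg1 (-1.06), whose value turned to 0.80 with a length offset and to 0.46 and 0.77 with limma on log2(TPM + 1) and log2(TPM + 0.1), and Adgra3 (-0.78), which was called in 3 of 17 alternatives. They also include Adgrl2, called in 8 of 15 alternatives with values from -6.01 to -0.17, Adgrg3, called in 12 of 18, and Adgre1, called in 14 of 16. Of the 8 in control cells, Adgra3 was called in 13 of 16 alternatives and Adgrl2 in 13 of 14. Celsr2, a cadherin-type adhesion receptor, fell 5.01-fold in control and 7.99-fold in CtslΔTEC cells (SE 0.22 and 0.23 on the log2 scale). Adgrg5 was higher in unstimulated CtslΔTEC cells, at 5.01, 4.80, 3.97, 2.40 and 5.55 TPM against 0.613, 1.14, 0.359 and 1.47 TPM in control mice (1.85, SE 0.34, edgeR adjusted p = 0.0037), and at 0.0931 TPM or less in all stimulated libraries. Celsr2 was the other adhesion receptor called between unstimulated genotypes, higher in CtslΔTEC cells (0.43, SE 0.13, edgeR adjusted p = 0.0505) in 16 of 25 alternatives, so that 2 of 13 were called where 15.1% of all genes were. Celsr1 was lower in stimulated CtslΔTEC cells (-0.83, SE 0.15, adjusted p = 0.00231). It was the 1 gene of the 13 called between the stimulated genotypes, where 13.4% of all genes were called.

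Among 15 genes of tetraspanin partners, Ptgfrn, the immunoglobulin-superfamily protein bound by CD9 and CD81, had 12.1, 12.7, 10.2 and 9.57 TPM in unstimulated control and 3.50, 3.53, 3.35, 3.51 and 3.93 TPM in unstimulated CtslΔTEC mice (log2 difference -1.69, SE 0.10, edgeR adjusted p = 4.1e-07). After stimulation it had 7.43 and 8.52 TPM in control and 5.15 and 4.31 TPM in CtslΔTEC mice (-0.76, SE 0.15, adjusted p = 0.00465), so the groups did not overlap in either state. It fell in control (-0.37) and rose in CtslΔTEC cells (0.56). Igsf8, a second partner of CD9 and CD81, fell 7.48-fold in control and 16-fold in CtslΔTEC cells, from at least 7.02 TPM to at most 1.17 TPM. The stimulated CtslΔTEC libraries held 1 and 18 counts of it, and the log2 fold change in these cells ran from -6.88 to -2.84 over the alternatives. Between unstimulated genotypes Cd2 (-0.38) and Igsf3 (-0.94) were also called lower and Itga4 (0.44) higher in CtslΔTEC cells, each below the threshold with the Y-linked covariate, so that 4 of 11 partner genes were called where 15.1% of all genes were. Cd2 was called in 24 of 25 alternatives, Itga4 in 18 and Igsf3 in 21, and the Igsf3 value ran from -1.14 to -0.09. The unstimulated differences of Tspan31, Ptgfrn, Itgb3 and Adgrg5 were called in each of 25 alternatives, among them a Y-linked covariate, with which 439 genes were called over all genes and without which 1983 were. Y-linked levels nearly followed genotype in the unstimulated mice, so the fit with this covariate can hardly separate sex from genotype. Adam10 was higher in stimulated CtslΔTEC cells, at 77.5 and 59.1 against 43.3 and 50.04 TPM (0.52, SE 0.14, adjusted p = 0.0213), but not past the threshold without control mouse 5 or CtslΔTEC mouse 6. The integrin chain genes Itga4 and Itga6 fell in both genotypes (-3.05 and -2.45 in control, -3.16 and -3.14 in CtslΔTEC cells), and Ifitm1 and Ifitm3 rose (5.76 and 4.13, 5.50 and 5.04). Ifitm1 and Ifitm3 passed the filter only with the stimulated libraries included, and the size of their rise depended on the setting. Over the alternatives Ifitm1 ran from 3.84 to 6.06 in control and 3.50 to 5.79 in CtslΔTEC cells. Ifitm3 ran from 2.56 to 5.07 and from 2.99 to 5.79.

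**Figure D4:**
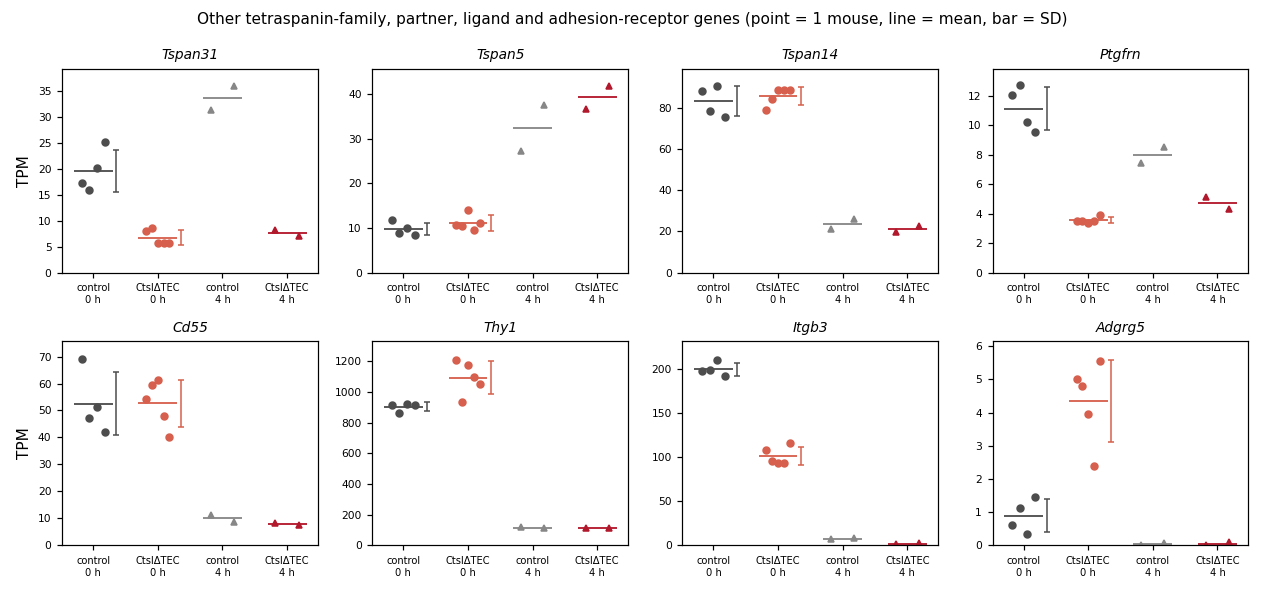
TPM (linear axes from 0) of 8 related genes in the 13 libraries, with 1 point per mouse, mean lines and SD bars for groups of 4 or 5. Tspan31, Ptgfrn and Itgb3 are lower in CtslΔTEC than in control cells in both states, Tspan5 rises and Tspan14, Cd55 and Thy1 fall with stimulation in both genotypes, and Adgrg5 is above 2 TPM only in unstimulated CtslΔTEC mice.

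All 11 activation genes listed as a check of the stimulus rose in both genotypes. Il2, the gene of the T cell growth factor interleukin-2, had 71.1 and 72.9 TPM in stimulated control and 4.18 and 7.79 TPM in stimulated CtslΔTEC mice (log2 difference -3.55, SE 0.33, edgeR adjusted p = 1.8e-05). Cd44, an adhesion receptor of activated T cells, was lower in CtslΔTEC cells before (-1.01, SE 0.11, edgeR adjusted p = 6.1e-05) and after stimulation (2.3-fold, SE 0.21 on the log2 scale, adjusted p = 0.00241). With Tnfrsf4 (-0.94, edgeR adjusted p = 0.0113), 3 of 11 were called between stimulated genotypes, all lower in CtslΔTEC cells, where 13.4% of all genes were called. The Tnfrsf4 difference was called in 15 of 16 alternatives and lost without CtslΔTEC mouse 6. The list as a whole was not lower: its median log2 difference between stimulated genotypes was 0.18. Its median response was 4.92 in control and 5.47 in CtslΔTEC cells. Between unstimulated genotypes 3 of 10 were called, where 15.1% of all genes were, with Cd44 and Irf4 (-0.96) lower and Il2ra higher. The Irf4 call was lost with the Y-linked covariate (-0.84) and without control mouse 2 or 4 (-0.87 in both). The part of these differences in those of Adgre5, Cd82 and Tspan13 was not tested.

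The genes most like each member were taken by Pearson's r of log2 CPM over the 13 libraries, among 10090 genes. Adgre5 was closest to Cd72 (r = 0.914), Kmt2e (0.897) and Plcb4 (0.871), and Cd82 to Slc25a1 (0.990), Tfip11 (0.990) and Tnfrsf4 (0.986). For the other members apart from Cd63 the first of the 3 closest genes had r of 0.982 to 0.998, and the third reached down to 0.973, for Oxr1 with Tspan13. The libraries share 2 states and fall into a stimulated and an unstimulated cluster, so these values describe the pattern and are not tested.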

How the data were processed

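RNA from sorted M2 CD4SP thymocytes was sequenced in 13 libraries, each from 1 mouse (numbered as in the sample titles; the deposited files name other numbers for unstimulated CtslΔTEC mouse 2 and the stimulated mice); the labels give polyA RNA, the methods rRNA depletion. The authors ran kallisto 0.48 on the Ensembl 106 transcripts and deposited an estimated count, not normalized, and TPM for each transcript. Default parameters are reported unless specified, and no strand option is named. Of 117497 transcripts, 116397 (99.1%) were paired with genes by GENCODE M21 (GRCm38), which is older than the authors' annotation; all 69 member transcripts had the same length in both. Sequences and coordinates are from GENCODE M21.

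Counts were summed to genes, rounded and tested in R 4.3.3 with edgeR 4.0.16 (quasi-likelihood, TMM, filterByExpr, Benjamini-Hochberg over all genes tested, threshold 0.1), on 9 libraries for the unstimulated comparison and in a 4-group model of 13 libraries otherwise. With 2 mice a group, the spread of stimulated mice was estimated over all groups. All replicate pairs differed by more than sampling noise. Levels are TPM and fold changes rest on scaled counts. Libraries held 8085463 to 39127833 counts. On simulated data with known changes, edgeR recovered 74 of 100 genes changed by 1 on the log2 scale in the stimulated comparison and 95 of 100 in the unstimulated one, among 14241 and 13152 genes. False calls numbered 6 and 25. The simulated counts had the same spread between mice for every gene and no effect of date or sex. The recovery therefore does not measure power in the real libraries.

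The members and lists were chosen with earlier results of these data known. Some listed genes are not reported here. The rule named all members, any list gene past the threshold in the comparison in which it passed, and for each member the 3 genes with the highest r among genes whose mean log2 CPM (prior count 2) was 1 or more. Alternatives were DESeq2 1.42.0, other scalings and filters, a length offset, limma 3.58.1 on log2(TPM + 1) and log2(TPM + 0.1), thinning, a Y-linked covariate, file date, a mouse number block, a threshold of 0.05 and leaving out each mouse.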

Additional observations from a re-analysis of the deposited data

Results flagged for a closer look

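The difference between the responses of the 2 genotypes passed an adjusted p of 0.1 in edgeR's interaction test for 3 of 10 members, 1 of 6 ligand genes, 1 of 13 adhesion receptors, 3 of 13 tetraspanin partners and 2 of 11 activation genes, where 6.14% of all genes passed. The members were Adgre5 (log2 difference 1.54), Cd82 (-1.18) and Tspan13 (-0.78), whose choice rested on this contrast. Among the related genes Itgb3 (-0.96), Pi4k2a (-0.53), Celsr1 (-0.65) and the activation genes Il2ra (-1.83) and Tnfrsf4 (-1.31) responded lower in CtslΔTEC cells, and Ptgfrn (0.93) and Adam10 (0.52) higher. For Il2ra CtslΔTEC cells were 4-fold higher before stimulation (SE 0.19 on the log2 scale, edgeR adjusted p = 3.3e-05), and after it the log2 difference was 0.16 (SE 0.20, adjusted p = 0.711). Of 24 alternatives the interaction was called in 11 for Adam10, 15 for Celsr1, 21 for Pi4k2a and 23 for Itgb3, which lost it without CtslΔTEC mouse 6 (-0.66), and in all 24 for Il2ra, Tnfrsf4 and Ptgfrn. In the 20 groups of 4 or 5 unstimulated mice examined, 0 held a member value far from the others by Dixon's rule, where chance gives about 1.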

How the results depend on the processing

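The number of genes called between unstimulated genotypes went from 1983 to 439 with a Y-linked covariate, and between stimulated genotypes from 1908 to 1178 with the stimulated libraries alone; at an adjusted p of 0.05 the interaction gave 526 in place of 874. Leaving out 1 mouse gave 1560 to 2358 genes between unstimulated and 982 to 2243 between stimulated genotypes, 8322 to 9542 and 8951 to 10131 in the control and CtslΔTEC responses, and 343 to 1263 for the interaction; the counts that moved most were those without CtslΔTEC mouse 6 (982 and 343), control mouse 5 (998 and 375) and CtslΔTEC mouse 7 (1258, stimulated genotypes). Members called between unstimulated genotypes (1, Cd9) went to 0 with no count filter, the length offset, the Y-linked covariate, the replicate block or a threshold of 0.05, and to 0 to 1 without 1 mouse; without 1 mouse 3 to 5 members were called between stimulated genotypes, 9 in the control response, 8 to 9 in the CtslΔTEC response and 2 to 3 for the interaction. Adgrg1, called lower in the CtslΔTEC response, turned to 0.80 with the length offset and to 0.46 and 0.77 with limma on log2(TPM + 1) and log2(TPM + 0.1). The cause of these changes was not tested.

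Mouse numbers did not pair the samples: same-numbered mice 1 to 4 correlated best with each other for 1 of 4 numbers, and the replicate block gave 1125 genes. With library totals as the only scaling 56.8% of calls between unstimulated genotypes were higher, against 43.7%, and with DESeq2 29.4% of interaction calls, against 19.2%. Library totals moved the median of all genes in the CtslΔTEC response from -0.06 to -0.21. Of 964 alternative member fold changes, 71 moved by more than 1 SD between mice. At 1 to 17 counts of Cd63 per library no change of it could be described, and Cd151 rested on 30 to 449 counts.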
